A study of Homo sapiens with 8 samples.

Results

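The respiratory chain mRNAs encoded in the nucleus were followed in RNA pulled down with RPS6, which is ribosomal protein S6 of the small subunit of the ribosome. Their genes were chosen by name: the NDUFA, NDUFB, NDUFC, NDUFS, NDUFV and NDUFAB1 names of complex I, SDHA to SDHD of complex II, the UQCR names and CYC1 of complex III, the COX4 to COX8 names of complex IV and the ATP5 names of complex V. The name rule matched 182 entries, of which 91 had pseudogene names ending in P and a number and were left out. The remaining 91 entries, of 57756 genes in the tables, carried 87 different names, and 40 belonged to complex I, 5 to complex II, 10 to complex III, 17 to complex IV and 19 to complex V. The names SDHD, NDUFB8, UQCR11 and NDUFA7 each appeared with a second entry at the same locus. ATP5S and ATP5SL (now DMAC2L and DMAC2) are matched by name only and are no subunits of the enzyme, ATP5J2LP is a pseudogene, and NDUFA4 is placed in complex IV by current knowledge but was kept with complex I by its name.

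RNA immunoprecipitation (RIP) with an RPS6 antibody was done in 4 human cancer cell lines: Hep3B (hepatocellular carcinoma), HCT116 (colon cancer), DU145 (prostate cancer) and SW1990 (pancreatic cancer). Each line gave 1 RIP library and 1 input library, prepared from an aliquot of the lysate, and all 8 libraries came from cells with no labelled treatment or genetic change. A library from a control antibody was not analysed here, so each RIP value is read against the input of the same line. The liver cancer pair is titled 3B and is Hep3B in the paper's methods, but Huh7 is entered as its cell line in the labels. It is called Hep3B here. The summed level of 6 hepatocyte genes was 6537 FPKM (fragments for each kilobase of a transcript and each 1000000 mapped fragments) in the Hep3B input and at most 16.0 in the others. Since Hep3B and Huh7 are both hepatocellular carcinoma lines in the paper, this sum cannot tell them apart. The labelled tissue was less clear elsewhere: the prostate genes KLK3 and KLK2 were listed at 0 in the DU145 input, and CDX1 and VIL1 were listed at 0 in the HCT116 input. In the SW1990 input the duct genes CEACAM6, KRT7 and KRT19 were at 0, 3.17 and 229 FPKM, while the intestinal factor CDX2 was at 86.6. Libraries held between 34630231 and 54209591 fragments.

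The respiratory chain sits in the inner mitochondrial membrane. Complexes I and II pass electrons from NADH and succinate to ubiquinone, complex III passes them to cytochrome c, complex IV hands them to oxygen, and complex V (ATP synthase) uses the resulting proton gradient to make ATP. Outside complex II, which is made of SDHA to SDHD, a few large subunits of each complex hold the catalytic centers or the structural core. Many small accessory subunits surround them. Most subunits are translated on cytosolic ribosomes and imported, while mitochondrial DNA encodes a small set that is translated inside the organelle.

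More respiratory chain mRNAs were lower than higher in RPS6 RIP against input, and those that were higher included NDUFV1, SDHA, UQCRC1, CYC1 and ATP5B. Of 83 members with enough counts to be tested, 57 were lower and 11 higher in RIP, and 15 did not pass the test (edgeR's quasi-likelihood test with the cell line as a block, adjusted p under 0.05 over all genes tested). Among all 19921 genes tested, 24.9% were lower and 26.5% higher, so the share of lower members was above the background and the share of higher members below it. The median log2 fold change (RIP over input) was -1.19 over the members, -0.05 over all genes tested and 0.12 over protein-coding genes. UQCRC1 of complex III stood highest with a log2 fold change of 1.87 and NDUFB1 of complex I lowest with -3.82. The 8 members that were not tested were COX4I2, COX6A2 and COX7B2, which were listed at 0 in all 8 libraries, COX7A1, COX8C, ATP5L2, ATP5J2LP and the second SDHD entry. The 4 lines served as the replicates. With the line as a block, an adjusted p sets a RIP to input difference against its own spread between lines. The spread in level between lines is set aside by the block. Without the Hep3B pair, whose labels differ, 10 members were higher and 61 lower. As tabulated, 57 of the 91 members shared a counting locus with other genes, among them SDHD (17 genes at 1 locus), COX6C (14), NDUFV2 (9) and NDUFB3 (8), and for these the split of reads is less certain.

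**Figure D1:**
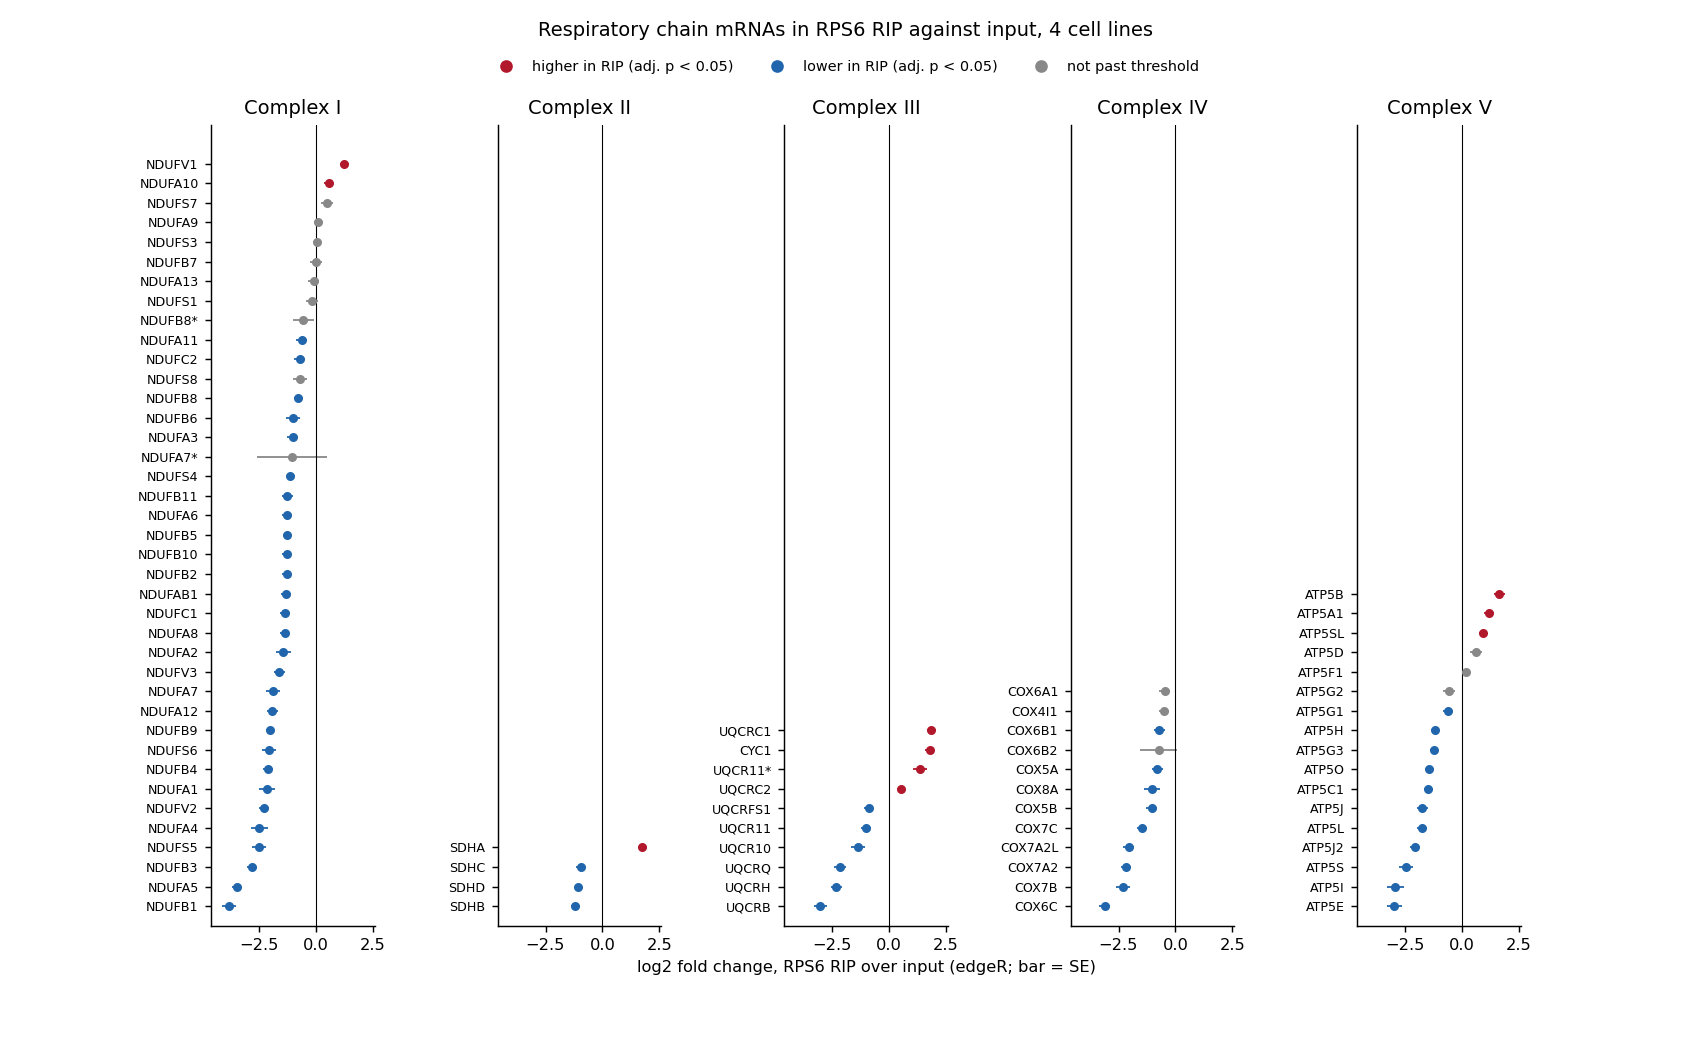
Log2 fold change of tested members (RPS6 RIP over input, edgeR fit over 4 cell lines) on the x axis, by complex, all but 1 shown, with bars for the standard error (SE) and asterisks for the second entry of a doubled name. Complexes I, II, III and V have members on both sides of 0, while the 12 members of complex IV all lie below 0, 9 of them past the threshold.

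Every complex had a median below 0. In complex I, 28 of 40 tested members were lower and 3 higher, with a median log2 fold change of -1.27. In complex II, 3 of 4 were lower and 1 was higher (median -1.02). In complex III, 6 of 10 were lower and 4 higher (median -0.94). In complex IV, 9 of 12 were lower and 0 were higher (median -1.04). The count of lower members was 10 with DESeq2 and 6 with limma at either pseudocount. It was also 6 without HCT116 and 6 without SW1990. At an unadjusted p under 0.05, 0 were higher by edgeR, DESeq2 and limma alike, and all 12 edgeR values lay below 0. In complex V, 11 of 17 were lower and 3 higher (median -1.23). The medians of the complexes lay close together, and no test was made between complexes.

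In complex I, the mRNAs of the core subunits and those of the accessory subunits had different values. The core subunits carry the flavin and the iron-sulfur clusters that take electrons from NADH to ubiquinone. Of 7 core members, 2 were higher (28.6%) and 1 lower (14.3%), against 26.5% and 24.9% of all genes tested. Their median log2 fold change was 0.04. Of 33 accessory members, 27 were lower (81.8%) and 1 higher (3.03%), with a median of -1.29. NDUFV1, which binds NADH and the flavin and lies on chromosome 11 from 67374322 to 67380006 (hg19), was at 114, 84.3, 79.0 and 56.1 FPKM in the inputs of Hep3B, HCT116, DU145 and SW1990 and at 225, 214, 169 and 157 in the RIP libraries. All 4 RIP levels were above all 4 input levels, and the log2 fold change was 1.25 (SE 0.19, edgeR adjusted p = 0.000278). NDUFV2, the iron-sulfur partner of NDUFV1, went the other way, from 92.8, 118, 97.9 and 284 FPKM to 15.3, 35.3, 22.3 and 62.7, with every RIP level below every input level (log2 fold change -2.28, SE 0.20, edgeR adjusted p = 1.5e-05). The FPKM ratio of NDUFV1 to NDUFV2 was therefore between 0.198 and 1.23 in the inputs and between 2.50 and 14.7 in RIP.

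Of the remaining core members of complex I, 4 did not pass the test. NDUFS8, an iron-sulfur subunit with the highest median input level of complex I, had a log2 fold change of -0.70 (SE 0.31, edgeR adjusted p = 0.0838), and NDUFS7, NDUFS3 and NDUFS1 had values of 0.49, 0.04 and -0.17. For NDUFS1 the scale mattered: its FPKM were higher in RIP in all 4 lines, with log2 ratios between 0.01 and 1.48, while the fit on estimated counts gave a value below 0.

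Among the accessory members, NDUFB1, a small membrane subunit, had the lowest value of all members. Its gene lies on chromosome 14 from 92582465 to 92588261 (hg19). It was at 39.7, 32.4, 142 and 141 FPKM in the inputs and at 2.98, 1.19, 5.54 and 12.9 in RIP (log2 fold change -3.82, SE 0.33, edgeR adjusted p = 1.43e-05). The lowest input level was more than the highest RIP level. NDUFA5 followed with -3.47 and NDUFB3 with -2.82, both also without overlap between RIP and input. NDUFA10, a larger accessory subunit, was higher (log2 fold change 0.56, SE 0.21, edgeR adjusted p = 0.0442), but its call was lost without HCT116, without DU145 and without SW1990 (adjusted p between 0.106 and 0.182), and with library totals in place of TMM, where the log2 fold change was 0.21 (adjusted p = 0.399). It was also lost without a count minimum and with a mean of at least 50 counts (edgeR adjusted p of 0.0691 and 0.0501). NDUFA4 was lower (log2 fold change -2.48, SE 0.36, edgeR adjusted p = 0.000233), with log2 ratios of -3.39 and -3.55 in HCT116 and SW1990 and of -1.62 and -1.19 in Hep3B and DU145. The second NDUFA7 entry had the lowest input level of complex I and no settled sign (log2 fold change -1.04, SE 1.54), and it turned to 0.58 without DU145.

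Complex II had 1 mRNA higher and 3 lower. SDHA, the flavoprotein that oxidizes succinate (hg19 chromosome 5 from 218355 to 256815), was at 29.5, 41.2, 68.6 and 34.4 FPKM in the inputs and at 102, 213, 219 and 117 in RIP, so that every RIP level was above every input level (log2 fold change 1.75, SE 0.20, edgeR adjusted p = 4.73e-05). SDHB, the iron-sulfur subunit that takes electrons from SDHA, was at 40.9, 141, 71.0 and 113 FPKM in the inputs and at 29.4, 62.1, 39.0 and 44.2 in RIP (log2 fold change -1.20, SE 0.20, edgeR adjusted p = 0.000533). Its RIP and input levels overlapped between lines, but RIP was below input within each line. SDHC and SDHD, the membrane anchors, had log2 fold changes of -0.95 and -1.09, both past the threshold. The FPKM ratio of SDHA to SDHB was between 0.293 and 0.966 in the inputs and between 2.66 and 5.61 in RIP.

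In complex III, the large core proteins and cytochrome c1 were higher. UQCRC1, core protein 1 (hg19 chromosome 3 from 48636434 to 48648409), was at 59.5, 177, 67.8 and 109 FPKM in the inputs and at 240, 651, 236 and 473 in RIP (log2 fold change 1.87, SE 0.19, edgeR adjusted p = 2.93e-05). The lowest RIP level was above the highest input level. CYC1, the heme-bearing cytochrome c1, was at 44.1, 176, 86.1 and 139 FPKM in the inputs and at 156, 445, 298 and 445 in RIP (log2 fold change 1.79, SE 0.20, edgeR adjusted p = 4.72e-05), with RIP above input in every line although the 2 groups overlapped. UQCRC2, core protein 2, had a smaller change (log2 fold change 0.52, SE 0.18, edgeR adjusted p = 0.0326), and its call was lost without Hep3B, without HCT116 and without DU145 (adjusted p between 0.0825 and 0.145), and with library totals in place of TMM, where the log2 fold change was 0.17 (adjusted p = 0.469). It was also lost without a count minimum (edgeR adjusted p = 0.106).

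The small subunits of complex III, and the Rieske protein UQCRFS1, were lower. UQCRB was at 46.0, 68.7, 74.2 and 117 FPKM in the inputs and at 10.3, 9.24, 12.1 and 6.27 in RIP, without overlap (log2 fold change -3.01, SE 0.28, edgeR adjusted p = 1.84e-05). UQCRH, the hinge protein and the member of complex III with the highest median input level, had a log2 fold change of -2.31 (SE 0.24), and UQCRQ one of -2.14 (SE 0.25). UQCR10 was lower in HCT116, DU145 and SW1990 with log2 ratios of -1.99, -1.35 and -1.72, but stood at 0.15 in Hep3B. The 2 entries of UQCR11, which share reads at 1 locus, went in opposite directions, with log2 fold changes of -0.997 for the described gene and 1.38 for the second entry, so the split between them is uncertain.

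By median FPKM, complex IV held the most abundant of the 91 members before immunoprecipitation. Of the 10 members with the highest median input FPKM, 7 were COX genes, led by COX6A1 with a median of 609 FPKM (range 253 to 771). USMG5, a small ATP synthase protein outside the name rule, had a higher input median of 819 FPKM. By share of fragments, complex V stood above complex IV in every input. COX6C, a small membrane subunit, was at 340, 356, 386 and 437 FPKM in the inputs and at 80.0, 39.6, 43.8 and 41.5 in RIP (log2 fold change -3.10, SE 0.25, edgeR adjusted p = 1.27e-05). Inputs lay close together and far above every RIP level, and by median level COX6C went from the place 5 of 91 members to 44. COX7A2, COX7A2L and COX7B had log2 fold changes of -2.15, -2.06 and -2.30, all past the threshold.

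**Figure D2:**
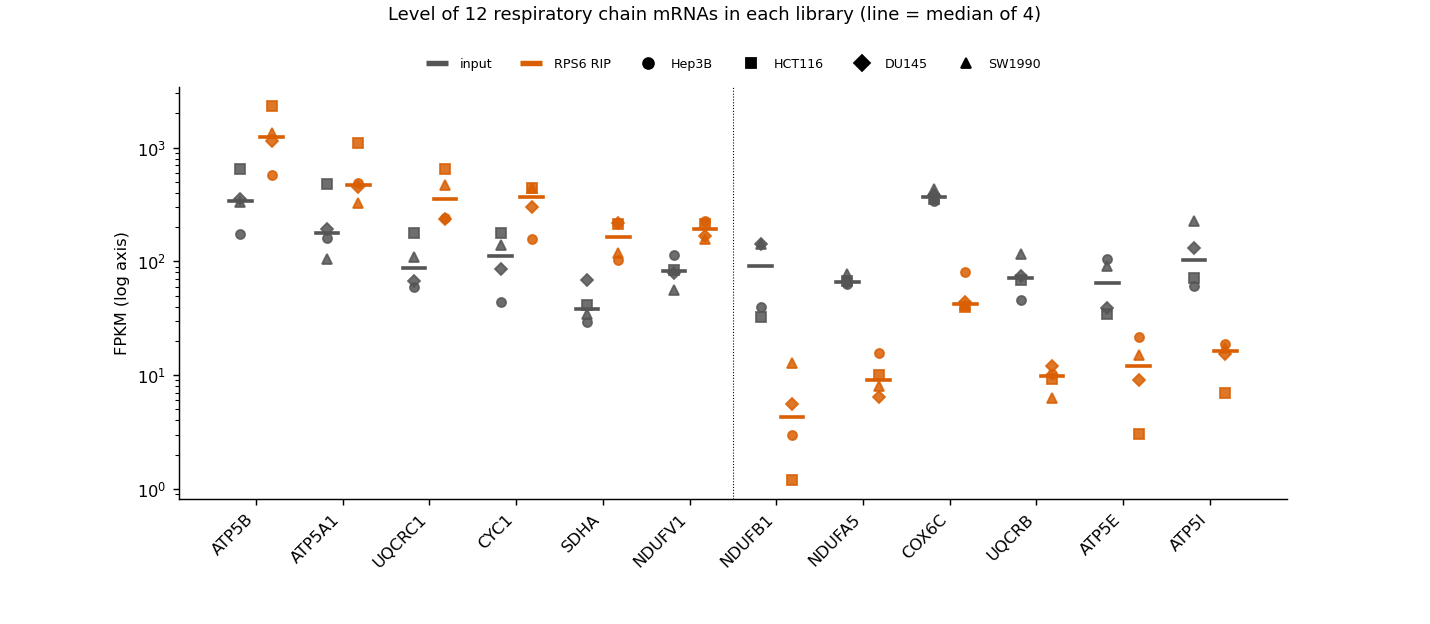
FPKM on a log axis of 12 respiratory chain mRNAs in the 4 input (gray) and 4 RPS6 RIP libraries (orange), with 1 symbol per cell line and a line at the median of 4. The members on the left have RIP medians above their input medians, as ATP5B with 1249 against 341 FPKM, and those on the right have RIP medians below them, as NDUFB1 with 4.26 against 90.4 FPKM.

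Other subunits of complex IV were nearer to 0. COX6A1 and COX4I1 had log2 fold changes of -0.48 and -0.51 and did not pass the test (edgeR adjusted p of 0.148 and 0.0676). COX6B1 and COX8A were lower with -0.71 and -1.03 (edgeR adjusted p of 0.0301 and 0.0273), but both calls were lost without HCT116 and without SW1990 (adjusted p between 0.124 and 0.139), and that of COX6B1 also without DU145 (adjusted p = 0.0502). Both calls were also lost with limma at either pseudocount (limma adjusted p between 0.0677 and 0.268). COX8A had log2 ratios of -1.83 and -1.70 in HCT116 and SW1990 and of -0.18 and -0.12 in Hep3B and DU145. The tissue-restricted paralogs were nearly absent: COX4I2, COX6A2 and COX7B2 were listed at 0 throughout, COX7A1 reached at most 1.69 FPKM, COX8C at most 0.145, and COX6B2, whose protein belongs to testis, at most 0.700. COX6B2 was tested and gave a log2 fold change of -0.73 with an SE of 0.82.

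In complex V, the mRNAs of the alpha and beta subunits were higher and had the highest median RIP levels of the members. ATP5B (now ATP5F1B), the catalytic beta subunit (hg19 chromosome 12 from 57031958 to 57039798), was at 174, 651, 352 and 330 FPKM in the inputs and at 579, 2317, 1152 and 1345 in RIP (log2 fold change 1.65, SE 0.23, edgeR adjusted p = 0.000169). RIP was above input by a similar amount in each line, with log2 ratios of 1.73, 1.83, 1.71 and 2.02, although the Hep3B RIP level lay below the HCT116 input level. By median level it was at place 7 of 91 in input and at place 1 in RIP. ATP5A1, the alpha subunit, went from place 22 to place 2, at 162, 481, 192 and 105 FPKM in the inputs and 490, 1097, 451 and 329 in RIP (log2 fold change 1.19, SE 0.20, edgeR adjusted p = 0.000644). CYC1 and UQCRC1 held places 3 and 4 in RIP, after places 36 and 49 in input.

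Of the other F1 members, ATP5C1 and ATP5E were lower and ATP5D did not pass the test, and the median log2 fold change over the 5 members of F1 was 0.62. ATP5D, the delta subunit, had RIP above input in all 4 lines, with log2 ratios of 1.27, 0.10, 0.84 and 0.26 (log2 fold change 0.62, SE 0.26, edgeR adjusted p = 0.0666). ATP5C1, the gamma subunit of the rotor, was lower (log2 fold change -1.47, SE 0.21, edgeR adjusted p = 0.000218), with every RIP level below every input level. ATP5E, the epsilon subunit, was at 106, 34.6, 38.7 and 91.3 FPKM in the inputs and at 21.6, 3.06, 9.14 and 15.0 in RIP, also without overlap (log2 fold change -2.96, SE 0.32, edgeR adjusted p = 3.9e-05). The FPKM ratio of ATP5B to ATP5E, which are parts of the same F1 head, was 1.64, 18.8, 9.09 and 3.62 in the inputs and 26.8, 757, 126 and 89.9 in RIP. Outside F1, 9 of 12 tested members were lower, and the 1 higher member was ATP5SL (log2 fold change 0.92, SE 0.18, edgeR adjusted p = 0.00141), which is matched by name only. ATP5I, the small e subunit, had log2 ratios of -1.64 in Hep3B and of -3.20, -3.04 and -3.64 in the other lines (log2 fold change -2.92, SE 0.38, edgeR adjusted p = 0.000117).

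The 3 genes of the c ring, ATP5G1, ATP5G2 and ATP5G3, encode the same mature protein. Their log2 fold changes were -0.62 (edgeR adjusted p = 0.0428), -0.56 (edgeR adjusted p = 0.0888) and -1.23 (edgeR adjusted p = 0.000301). The call of ATP5G1 was lost without HCT116, without DU145 and without SW1990 (adjusted p between 0.123 and 0.197), and it was above 0 in Hep3B with a log2 ratio of 0.33.

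Between cell lines, Hep3B stood nearest to 0. The median log2 ratio of RIP to input over the tested members was -0.51 in Hep3B against -1.21 in HCT116, -1.01 in DU145 and -1.30 in SW1990, while that of all genes tested lay between 0.00 and 0.08. In Hep3B 30 of 83 members had a ratio above 0, against 16, 18 and 16 in the other lines, while the share of all genes tested with a ratio above 0 was 54.4% for Hep3B, 50.9% for HCT116, 52.3% for DU145 and 50.2% for SW1990. Complexes III and IV differed most between lines, with medians of -0.07 and -0.21 in Hep3B and of -1.37 and -1.53 in SW1990. With 1 pair per line, differences between lines have no test. Across the lines, 52 members were lower in all 4 (23.6% of all genes tested) and 13 higher in all 4 (30.7%). All RIP levels lay below all input levels for 28 members (8.17% of all genes tested), and above them for 5 (10.9%), among them NDUFV1, SDHA, UQCRC1 and ATP5SL.

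**Figure D3:**
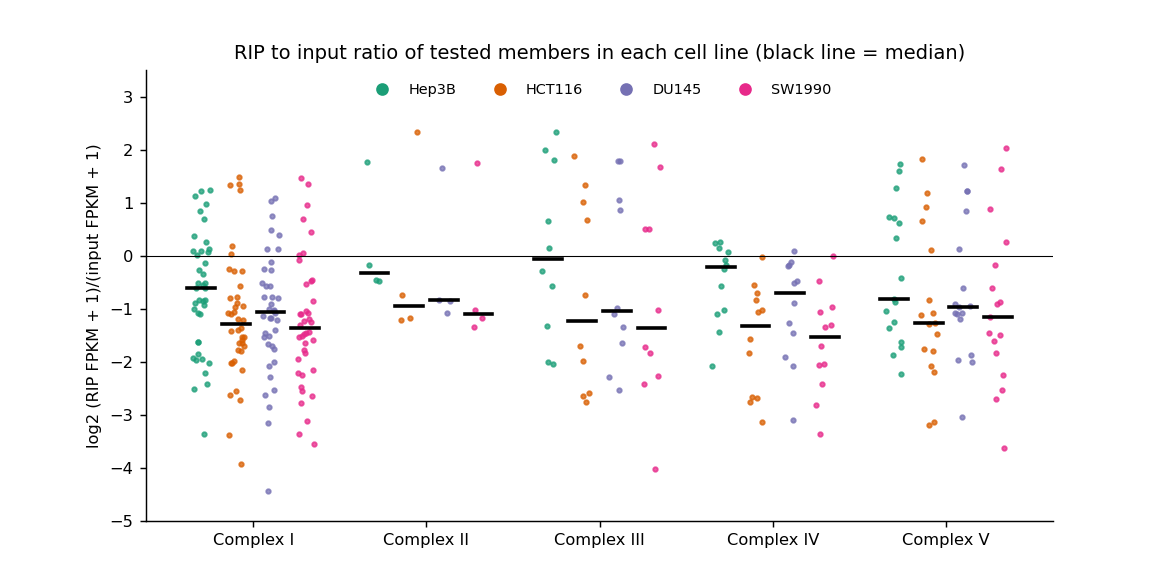
Log2 of (RIP FPKM + 1) over (input FPKM + 1) for each tested member on the y axis, by complex and cell line, with a black line at the median. The medians of Hep3B lie nearer to 0 than those of the other lines in each complex, from -0.82 in complex V to -0.07 in complex III.

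The members differed in transcript length, which moved with the result. A length was taken from the ratio of estimated count to FPKM, and since its scale is uncertain it was used only to order genes. The median was 0.547 kb over the tested members and 1.94 kb over protein-coding genes. Of 20 members under 0.4 kb, 18 were lower and the other 2 did not pass the test (median log2 fold change -1.42). Of 41 members from 0.4 to 0.8 kb, 31 were lower and the other 10 did not pass (median -1.28). Above that calls went both ways. Of 14 members from 0.8 to 1.2 kb, 7 were higher and 6 lower (median 0.34). Of 8 members of 1.2 kb or more, 4 were higher and 2 lower (median 0.17). Of other protein-coding genes, 8.65%, 7.70%, 20.4% and 37.1% were higher in the same classes, from short to long.

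Other protein-coding genes moved with length in the same direction. Their median log2 fold change was -0.98 under 0.4 kb, -0.80 from 0.4 to 0.8 kb, -0.37 from 0.8 to 1.2 kb and 0.31 above that. In the same classes 41.3%, 44.6%, 36.3% and 22.0% of them were lower, against 90%, 75.6%, 42.9% and 25% of the members. The gap was widest in the shorter classes. Across the 83 members the log2 fold change correlated with log2 length with r = 0.46 and rho = 0.36, and across 14516 other protein-coding genes with r = 0.33 and rho = 0.31. These describe genes that share the same 8 libraries, and the part of length in the result was not tested. The 2 lower members with an implied length of 1.2 kb or more were ATP5E and NDUFV3, a complex I accessory subunit. ATP5E was at 1.56 kb and -2.96, and NDUFV3 at 1.81 kb and -1.61. The counting locus of ATP5E held 2 genes, so its implied length is uncertain and may not be that of its mRNA.

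**Figure D4:**
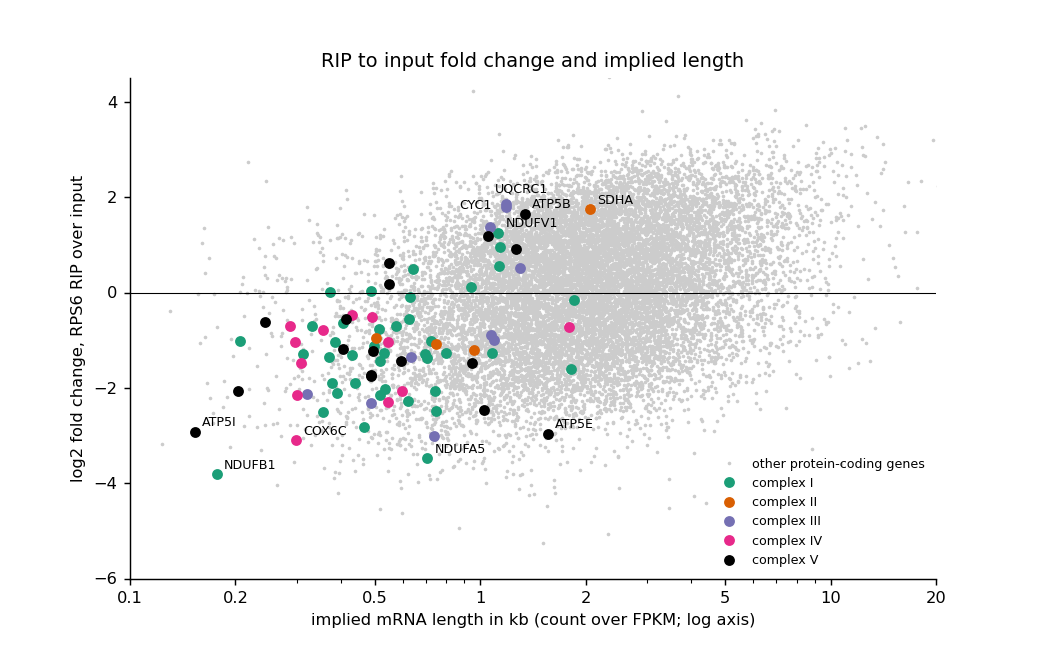
Log2 fold change (RPS6 RIP over input) on the y axis against implied transcript length in kb on a log x axis, for tested members colored by complex and for other protein-coding genes in gray. The 11 higher members all lie at 0.8 kb or more, and the shorter members lie mostly below 0. Other genes outside the axis ranges are not drawn.

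Other genes of the pathway were followed in lists of their own. Of 37 assembly factors, 22 were lower and 7 higher (median log2 fold change -0.83). The lowest were PET100 with -3.53 and COX17 with -3.42, a copper chaperone for complex IV, and the highest were SCO2 with 1.30, another copper chaperone, and ACAD9 with 1.11, which assembles complex I. CYCS (cytochrome c) was lower with -1.86, as were the small ATP synthase proteins USMG5 with -2.54 and C14orf2 with -2.20. Of 10 regulators of respiratory genes, 5 were higher and 3 lower (median 0.53). POLRMT, the mitochondrial RNA polymerase, was highest with 3.07, followed by PPRC1 with 1.84, and TFAM, which packages mitochondrial DNA, was lowest with -2.22. The factors NRF1 and GABPA, which bind many promoters of these genes, went opposite ways, with log2 fold changes of 0.94 and -1.38.

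Ribosomal protein mRNAs and the mRNAs encoded in mitochondrial DNA were also counted. Of 77 mitochondrial ribosomal protein genes tested, 50 were lower and 12 higher (median log2 fold change -0.97), and of 87 cytosolic ribosomal protein genes, 65 were lower and 1 higher (median -1.95). The 13 mRNAs encoded in mitochondrial DNA, partners of these subunits in complexes I, III, IV and V, were all lower, with a median of -5.05 and a highest value of -3.29. The lowest nuclear member, at -3.82, was therefore above the median of the mitochondrially encoded mRNAs.

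Because the members are made from many scattered genes, their promoters are shown for motifs of the known regulators of respiratory genes. Of 86 member names known to RefSeq, 69 had a promoter in the RefSeq table (GRCh38.p14, 250 bases before and 50 after the start, 300 in all). The NRF1 motif (GCGCA, any base, then GCGC) was present on either strand in 23.2% of them, against 8.58% of 15843 protein-coding promoters and 5.78% of all 35116. CCGGAAG of GABP was present in 27.5%, against 14.2% and 10.3%, and AANATGGCG of YY1 in 23.2%, against 4.81% and 3.19%. The matches can overlap each other. At least 1 of the 3 motifs was present in 56.5% of the member promoters, against 24.2% of protein-coding promoters and 17.1% of all. It was present in 2 of the 7 promoters found for higher members (28.6%) and in 27 of 47 for lower members (57.4%). A match is a description of these letters and not a measured binding site.

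Of the promoters with a motif in the last 120 bases before the start, those of the 2 higher members and of 3 lower members are given 5′ to 3′ on the gene's strand, with motif letters in capitals. SDHA lies on the plus strand at chr5:218200-218319, UQCRC1 on the minus strand at chr3:48609647-48609766, UQCRH on the plus strand at chr1:46303578-46303697, UQCRQ on the plus strand at chr5:132866522-132866641 and NDUFB4 on the plus strand at chr3:120596216-120596335. SDHA and UQCRC1 were among the 3 members with the highest log2 fold change, and the other 3 had log2 fold changes between -2.31 and -2.10. These 3 are examples and not all lower members with a motif there. NDUFA1 (GABP letters, log2 fold change -2.15) and NDUFA12 (NRF1 letters, -1.91) also had one and are not printed.
SDHA: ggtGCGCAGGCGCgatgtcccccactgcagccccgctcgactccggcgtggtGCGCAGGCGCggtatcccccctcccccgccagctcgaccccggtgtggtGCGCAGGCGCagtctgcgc
UQCRC1: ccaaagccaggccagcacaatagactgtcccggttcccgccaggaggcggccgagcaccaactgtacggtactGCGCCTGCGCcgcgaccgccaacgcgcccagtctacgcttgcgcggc
UQCRH: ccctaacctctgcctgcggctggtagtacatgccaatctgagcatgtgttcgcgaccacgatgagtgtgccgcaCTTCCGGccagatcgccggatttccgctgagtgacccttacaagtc
UQCRQ: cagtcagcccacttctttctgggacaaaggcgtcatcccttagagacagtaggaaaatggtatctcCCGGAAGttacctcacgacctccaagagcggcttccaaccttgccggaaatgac
NDUFB4: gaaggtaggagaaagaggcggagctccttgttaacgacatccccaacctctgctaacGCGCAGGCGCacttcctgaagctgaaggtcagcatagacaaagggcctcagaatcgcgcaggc
The capitals mark NRF1 letters in SDHA, where they occur 3 times, in UQCRC1 and in NDUFB4, and GABP letters in UQCRH and UQCRQ. NRF1 letters thus stood before members that were higher and before members that were lower in RIP.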

How the data were processed

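RNA from RPS6 RIP and from matched input was sequenced in 4 cell lines, 8 libraries in all, with a TruSeq Stranded Total RNA kit. The sequencer is named differently in the paper and in the series record. The authors aligned reads to hg19 with TopHat (TopHat2 2.0.9 and CASAVA 1.8 in the submitters' processing notes); the counter, annotation release, filters and use of strand are not given in the sources used here. The authors deposited FPKM per gene and library, and an estimated count, scaled by 1 factor per library and split between overlapping genes. Files of the authors' own fold changes, p-values and q-values were not used. All value columns of the gene tables were mapped to samples.

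The design assumed raw counts. Estimated counts were rounded and tested with edgeR 4.0.16 in R 4.3.3 (quasi-likelihood, TMM, cell line as a block, mean of at least 10 counts, Benjamini-Hochberg over all genes tested, threshold 0.05). Fits were tested on simulated data. RIP and input were paired by cell line, as labelled: across 19921 genes, the deviation of a RIP library from its group mean had an r of 0.839 to 0.886 with that of its own input and of at most -0.0423 with that of another input. Fragments were recovered by dividing the counts of a library by its common step, which made 92.2% to 93.8% of values whole within 0.01. Depth was 35796276 to 54209591 fragments in input and 34630231 to 42610124 in RIP, and 3 fragments correspond to 0.0553 to 0.0866 per 1000000. Log2 ratios per line used FPKM with a pseudocount of 1, which understates changes of low genes. Pseudogene entries left out by the name rule held 0.0762% to 0.289% of the fragments of members and such entries together.

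Members matched RefSeq symbols for 90 of 91 entries, through older names where needed. Named genes were, per complex, those with the highest and lowest input level and fold change, listed paralogs, and the 5 with the largest SD between lines; other genes (CYC1, ATP5A1 and others) were named after their values were seen. The values of 1 counted member are not reported here. The members and lists were chosen with earlier results of these data known. Alternatives used DESeq2 1.42.0, limma 3.58.1 on log2 FPKM with a pseudocount of 1 or 0.1, library totals, no block, recovered fragments, other count minimums and 1 cell line left out. Other steps ran in Python 3.11.15 (matplotlib 3.10.9, SciPy 1.17.1, NumPy 2.4.6, pandas 2.3.3).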

Additional observations from a re-analysis of the deposited data

Results flagged for a closer look

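In all, 39 sets of 4 log2 ratios of RIP to input were searched for a line far from the others. Of these, 2 were flagged, which is near the share of about 1 set in 20 that chance alone marks. SDHA had a log2 ratio of 2.34 in HCT116, against 1.76 in Hep3B, 1.66 in DU145 and 1.74 in SW1990, a gap of 0.852 of the whole range. ATP5G2 had a log2 ratio of 0.61 in Hep3B, against -0.84, -0.90 and -0.91 in HCT116, DU145 and SW1990, a gap of 0.954 of the range.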

How the results depend on the processing

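The count of higher members was 9 to 11 and that of lower members 50 to 61 under every alternative but 1. Without the cell line as a replicate block, 4 members were higher and 25 lower, and these 29 were all among the 68 called with it. No member was called with the opposite sign under any alternative. With library totals in place of TMM, the median of all genes tested moved from -0.05 to -0.40, and the medians of complexes I, II and V to -1.62, -1.37 and -1.58. Without a count minimum, the median of all genes tested was -0.60. With limma on FPKM it was 0.13 or 0.14, and the median of complex V was -0.97 with either pseudocount. The second NDUFA7 entry turned to 0.062 without the block and lay between -3.06 and 0.58 with 1 line left out (0.58 without DU145), and the cause was not tested. Ordered by estimated counts per 1000000, 5 of the 10 members with the highest median input FPKM were again among the highest 10.

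With 1 cell line left out in turn, 9 to 11 members were higher and 50 to 61 lower. The median log2 fold change ranged from -1.41 to -1.08 over all members, from -1.43 to -1.15 in complex I, from -1.27 to -0.94 in complex II, from -1.21 to -0.81 in complex III, from -1.40 to -0.76 in complex IV and from -1.43 to -1.11 in complex V. Members higher in every remaining line numbered 13 to 15 and members lower in every line 52 to 62, and 9 of the 10 highest input levels were kept.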
